A study of Mus musculus with 9 samples.

Results

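The 10 genes described here encode the core of 2 forms of lytic cell death, necroptosis (Ripk1, Ripk3, Mlkl, Zbp1 and Casp8) and pyroptosis (Gsdmd, Casp1, Casp4, Nlrp3 and Pycard). They were chosen by name for their role, with earlier results of these data known, and were found by their Entrez gene numbers among the 17963 genes of the deposited expression table, and all 10 were present. RNA was sequenced from the kidney of wild-type mice on day 4, in 3 libraries for each of 3 groups, 9 in all. Per the labels, control mice received saline into the peritoneum and pure water by gavage, cisplatin mice received cisplatin into the peritoneum and pure water by gavage, and the last group received cisplatin into the peritoneum and YSJZD by gavage. Cisplatin is a platinum drug that damages the renal tubule. The labels do not spell out YSJZD, and no group received YSJZD without cisplatin. The tissue was renal cortex, and the sources do not give the doses, the strain or the age of the mice, nor say that each library came from its own mouse, so the p-values below measure the spread between these samples. The question the design asks is how cisplatin changes cortical RNA and how the RNA differs when YSJZD is given with it.

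In necroptosis the kinase RIPK1, or the nucleic acid sensor ZBP1, brings the kinase RIPK3 to the point of phosphorylating MLKL, which then opens the plasma membrane. Caspase-8 cuts RIPK1 and RIPK3 and holds this route in check. In pyroptosis the sensor NLRP3 and the adaptor ASC, the product of Pycard, activate caspase-1, while the mouse protein made from Casp4 is activated by bacterial lipopolysaccharide inside the cell, and either caspase can cut gasdermin D, whose freed part makes pores. Most of these proteins wait in an inactive form and are switched on by assembly, cleavage or phosphorylation, none of which RNA measures.

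Library totals lay between 15029286 and 16690482 expected counts. Levels are given as CPM, counts scaled to a common library size, after a TMM correction of each library total for composition. A gene was called changed in a comparison at an adjusted p under 0.05 (edgeR quasi-likelihood test, Benjamini-Hochberg over the 13954 genes tested), and log2 fold changes are followed by their standard error. Summed CPM of 14 proximal tubule markers, the main cells of the cortex, lay between 73030 and 93310 in control, between 5002 and 7509 with cisplatin and between 19540 and 39530 with YSJZD. Summed CPM of 12 general leukocyte markers lay between 75.3 and 113.7 in control, was 387.7, 910.0 and 233.4 in cisplatin replicates 1, 2 and 3, and lay between 86.1 and 113.6 with YSJZD. In whole tissue, a change in the number of cells of a type and a change in RNA per cell cannot be told apart. Cisplatin replicate 3 stood apart on the third principal component of the 9 libraries, with a score of 50.67 against -24.98 to 6.07 elsewhere. Calls of single genes given below that were lost without this library are marked.

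With cisplatin, 9 of the 10 genes rose and none fell, where 28.6% of all tested genes rose and 26.0% fell in that comparison. The median log2 fold change of the 10 genes was 2.66 and that of all tested genes 0.04. With YSJZD added, 8 of the 10 were lower than with cisplatin alone and none was higher, where 18.0% of all tested genes were lower and 17.4% higher. The YSJZD libraries were still above control for 5 genes, Ripk3, Mlkl, Casp8, Gsdmd and Casp4, where 9.93% of all tested genes were higher and 9.37% lower. None of the 10 genes was called in the opposite direction in any of these comparisons, by edgeR, DESeq2 or limma-voom or at an unadjusted edgeR p under 0.05. The comparisons are not independent, since each group of libraries enters a pair of them. Casp1 and Nlrp3 passed the filter for low counts only through the cisplatin libraries. For both genes the filter favoured a rise with cisplatin and a lower level with YSJZD.

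**Figure D1:**
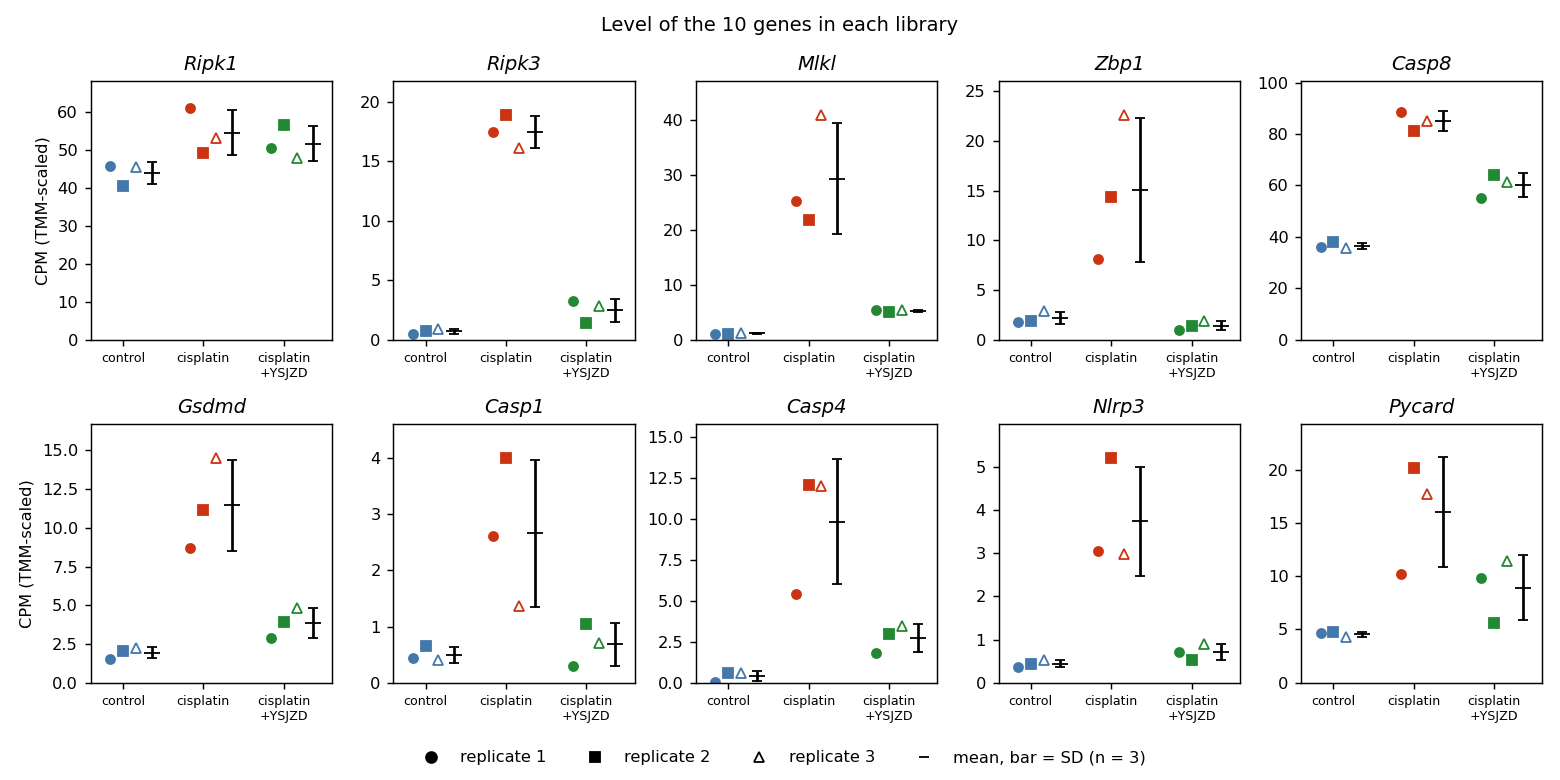
TMM-scaled CPM of the 10 genes in each of the 9 libraries, with the mean and SD of each group of 3 beside the points, each panel on its own linear axis from 0. The 3 cisplatin libraries lie above the 3 control libraries in all 10 panels, and Zbp1, Casp1 and Nlrp3 with YSJZD overlap control.

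Among the necroptosis genes, the sensor and kinase genes differed widely in how far they moved. Ripk1, the kinase that joins death receptors to either survival or death, was at 45.6, 40.6 and 45.6 CPM in control replicates 1, 2 and 3, at 60.9, 49.3 and 53.1 with cisplatin and at 50.4, 56.6 and 47.8 with YSJZD. The cisplatin libraries lay above control by a narrow margin and overlapped those with YSJZD. None of its 3 comparisons passed the test, with log2 fold changes of 0.31 ± 0.13 for cisplatin against control (adjusted p = 0.0597), -0.08 ± 0.13 for YSJZD against cisplatin (adjusted p = 0.661) and 0.23 ± 0.13 for YSJZD against control (adjusted p = 0.2345). The first of these passed when libraries were scaled by their totals alone, with 0.54 and an adjusted p of 0.00596, a scaling under which the median of all genes stood at 0.27. It also passed without cisplatin replicate 2, the lowest of the 3, with an adjusted p of 0.0489. With all libraries it passed under a filter of 5 CPM in 3 libraries (0.33, adjusted p = 0.0398). Limma on log2(FPKM + 0.1) called it too (0.54, adjusted p = 0.00826), where the median of all genes was 0.26. Scaled by library totals alone, YSJZD against control passed as well (0.42, adjusted p = 0.0467).

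Ripk3, the kinase that phosphorylates MLKL, was close to absent in control, at 0.437, 0.729 and 0.861 CPM, which rest on 6, 10 and 13 counts. It was at 17.4, 18.8 and 16.1 CPM with cisplatin and at 3.21, 1.38 and 2.79 with YSJZD. The 3 groups did not overlap, and the cisplatin libraries were tightly grouped, with a mean of 17.5 ± 1.35 (SD, n = 3). The log2 fold change was 4.67 ± 0.37 for cisplatin against control (adjusted p = 6.44e-06), -2.82 ± 0.32 for YSJZD against cisplatin (adjusted p = 0.000231) and 1.85 ± 0.37 for YSJZD against control (adjusted p = 0.0071).

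Mlkl, which encodes the membrane executioner of necroptosis, was at 1.09, 1.09 and 1.19 CPM in control, at 25.2, 21.8 and 40.8 with cisplatin and at 5.31, 4.92 and 5.40 with YSJZD. The YSJZD libraries differed from each other by less than 0.5 CPM and lay between the other groups without touching either. Its log2 fold change with cisplatin, 4.69 ± 0.28 (adjusted p = 2.03e-06), was close to that of Ripk3. It fell by 2.49 ± 0.24 on the log2 scale with YSJZD against cisplatin (adjusted p = 0.000111) and stayed 2.20 ± 0.28 above control (adjusted p = 0.000678).

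Zbp1, the sensor of Z-form nucleic acids and itself an interferon-stimulated gene, was at 1.75, 1.89 and 2.91 CPM in control, at 8.14, 14.4 and 22.6 with cisplatin and at 0.934, 1.38 and 1.84 with YSJZD. The cisplatin libraries spread 2.78-fold from lowest to highest and all lay above the other groups, which overlapped each other. The log2 fold change was 2.77 ± 0.41 with cisplatin (adjusted p = 0.000301) and -3.43 ± 0.43 for YSJZD against cisplatin (adjusted p = 0.00038). With YSJZD its mean, 1.38 ± 0.45 CPM, was below the 2.19 ± 0.64 CPM of control, a difference that did not pass the test (-0.66 ± 0.43, adjusted p = 0.326). Summed CPM of 27 interferon-stimulated genes moved alongside, from 268.9 to 333.1 in control to between 2019 and 2502 with cisplatin and between 349.5 and 556.6 with YSJZD, and their part in the values of Zbp1 was not tested.

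Casp8, the protease that restrains necroptosis and can itself start apoptosis, had the smallest relative spread of the 10 genes in control and with cisplatin. It stood at 35.9, 37.8 and 35.6 CPM in control, at 88.7, 81.2 and 85.1 with cisplatin and at 55.1, 63.8 and 61.4 with YSJZD, and no groups overlapped. It rose by 1.22 ± 0.11 on the log2 scale with cisplatin (adjusted p = 1.42e-05), fell by 0.50 ± 0.11 with YSJZD against cisplatin (adjusted p = 0.00631) and remained 0.72 ± 0.11 above control (adjusted p = 0.00192).

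Of the pyroptosis genes, Nlrp3 and Casp1 were low throughout. Nlrp3, the sensor of the inflammasome, was at 0.364, 0.437 and 0.530 CPM in control, from 5, 6 and 8 counts, at 3.04, 5.20 and 2.98 with cisplatin and at 0.700, 0.525 and 0.890 with YSJZD. All cisplatin libraries were above all others, and YSJZD overlapped control. The log2 fold change was 3.05 ± 0.40 with cisplatin (adjusted p = 0.000145), -2.39 ± 0.38 for YSJZD against cisplatin (adjusted p = 0.00128) and 0.66 ± 0.43 for YSJZD against control (adjusted p = 0.323).

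Pycard, the adaptor that links NLRP3 to caspase-1, was at 4.66, 4.74 and 4.30 CPM in control, at 10.2, 20.2 and 17.8 with cisplatin and at 9.87, 5.58 and 11.4 with YSJZD. Every cisplatin and YSJZD library lay above control, and the lowest cisplatin library lay below the highest YSJZD library. It rose by 1.81 ± 0.32 with cisplatin (adjusted p = 0.000853), while -0.84 ± 0.31 for YSJZD against cisplatin (adjusted p = 0.0553) and 0.97 ± 0.32 for YSJZD against control (adjusted p = 0.0574) missed the threshold. The difference between YSJZD and cisplatin passed without cisplatin replicate 1, the lowest of its group, with an adjusted p of 0.0194, and that between YSJZD and control without YSJZD replicate 2, likewise the lowest, with 0.0221. With all libraries DESeq2 called both differences, with adjusted p of 0.0315 and 0.0297, and the latter also passed with library totals, with only the 6 libraries compared and on FPKM.

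Casp1, the inflammasome protease that matures IL-1β and IL-18, was at 0.437, 0.656 and 0.397 CPM in control, from 6, 9 and 6 counts, at 2.604, 4.00 and 1.37 with cisplatin and at 0.292, 1.05 and 0.712 with YSJZD. The cisplatin libraries lay above all others and spread widely, with a mean of 2.66 ± 1.32 CPM (SD, n = 3). It rose by 2.41 ± 0.56 with cisplatin (adjusted p = 0.00425) and fell by 1.96 ± 0.53 with YSJZD against cisplatin (adjusted p = 0.0170), and 0.45 ± 0.59 separated YSJZD from control (adjusted p = 0.643). The fall was no longer called without cisplatin replicate 2, at -1.54 with an adjusted p of 0.0634, or without YSJZD replicate 3, at -1.99 with an adjusted p of 0.0562.

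Casp4, the protease of the lipopolysaccharide route, had 1, 8 and 9 counts in control, or 0.0728, 0.583 and 0.596 CPM, and stood at 5.42, 12.1 and 12.04 CPM with cisplatin and at 1.81, 2.95 and 3.50 with YSJZD. The groups did not overlap. The log2 fold change was 4.52 ± 0.58 with cisplatin (adjusted p = 0.000117), the third of the set after Mlkl and Ripk3, -1.84 ± 0.48 for YSJZD against cisplatin (adjusted p = 0.0139) and 2.69 ± 0.58 for YSJZD against control (adjusted p = 0.0100).

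Gsdmd, the pore-forming substrate of both caspases, was at 1.53, 2.04 and 2.25 CPM in control, at 8.68, 11.1 and 14.5 with cisplatin and at 2.86, 3.94 and 4.80 with YSJZD, again with no overlap between groups. It rose by 2.55 ± 0.31 with cisplatin (adjusted p = 7.46e-05) and fell by 1.56 ± 0.29 with YSJZD against cisplatin (adjusted p = 0.00272). Its excess over control with YSJZD, 0.99 ± 0.30, lay just past the threshold (adjusted p = 0.0456). It was lost without any 1 of the control replicates (adjusted p = 0.0713 to 0.143) and without YSJZD replicate 2 (0.0926) or 3 (0.149). With all libraries it was lost by limma-voom (0.117), and in edgeR with DESeq2 size factors (0.0502) or no filter (0.0547).

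**Figure D2:**
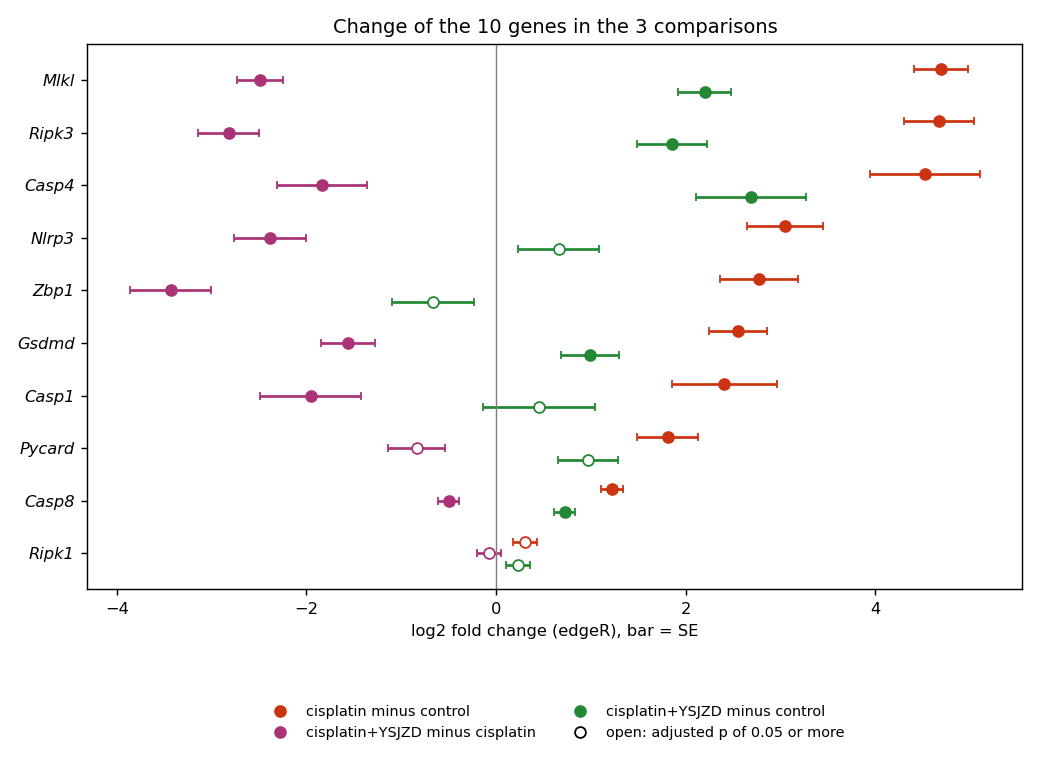
Log2 fold change with its standard error for the 10 genes in the 3 comparisons, ordered by the change with cisplatin, with open points for an adjusted p of 0.05 or more. Mlkl, Ripk3 and Casp4 lie above 4 with cisplatin, and Ripk1 has open points in all 3 comparisons.

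The groups of libraries did not overlap, with cisplatin higher, for all 10 genes against control, where this held for 32.4% of all tested genes. YSJZD lay below cisplatin without overlap for 8 genes, all but Ripk1 and Pycard, against 23.6% of all tested genes. For 7 genes YSJZD lay above control without overlap, against 20.8% of all tested genes, and Zbp1, Casp1 and Nlrp3 were those that overlapped. Of the log2 difference between cisplatin and control, the part absent with YSJZD was 25.0% for Ripk1, whose difference was not called, 40.6% for Casp4, 40.9% for Casp8 and 46.4% for Pycard, 53.0% for Mlkl, 60.4% for Ripk3 and 61.2% for Gsdmd, 78.4% for Nlrp3 and 81.3% for Casp1, and 123.8% for Zbp1, whose mean with YSJZD lay below control. These shares differ between genes by amounts that were not tested.

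Levels can be set against each other only per length of transcript, for which the deposited FPKM (fragments scaled to transcript length and library size) were summed over the transcripts of a gene. In control the order was led by Casp8, at a mean of 14.1 FPKM, and Ripk1, at 10.9 FPKM, and every other gene was at or below the 2.09 FPKM of Pycard. With cisplatin Casp8 still led, at 38.6 FPKM, and Zbp1, at 17.8, and Mlkl, at 16.9, followed. Libraries of Zbp1, Mlkl and Ripk1 overlapped in that group, Ripk1 lying between 14.6 and 18.6 FPKM, so that the executioner Mlkl stood level with Ripk1. With YSJZD the order returned to Casp8 at 26.0 and Ripk1 at 14.6 FPKM, followed by Pycard at 4.69 and Mlkl at 2.96 FPKM, whose libraries overlapped. Casp1 and Nlrp3 had the lowest means in every group, 2.11 and 1.06 FPKM with cisplatin, though Casp1 overlapped Casp4 in control and Zbp1 with YSJZD, and the lowest Casp4 control library, at 0.060 FPKM, was below all those of Nlrp3.

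Within the cisplatin group the genes did not share 1 order of libraries. Mlkl, Zbp1 and Gsdmd were highest in replicate 3, while Ripk3, Casp1, Casp4, Nlrp3 and Pycard were highest in replicate 2, and Casp1, Nlrp3 and Ripk3 were lowest in replicate 3. Leukocyte markers were highest in replicate 2 and lowest in replicate 3, and 12 of 12 passed the test as higher with cisplatin, 12 of 12 as lower with YSJZD against cisplatin and none in YSJZD against control, where edgeR had none at an unadjusted p under 0.05 either and DESeq2 and limma-voom called none. Macrophage markers, 18 genes, summed to 143.6 to 204.0 CPM in control, to 1326, 3074 and 2497 in cisplatin replicates 1, 2 and 3, and to 451.4 to 781.7 with YSJZD, with 13 of 18 higher in cisplatin than in control. Cd14, which encodes a lipopolysaccharide co-receptor, made up 2021 CPM of the sum in cisplatin replicate 3. Without it the other 17 genes summed to 133.0 to 190.6 CPM in control, to 884.1, 2382 and 475.7 in cisplatin replicates 1, 2 and 3 and to 129.1 to 187.2 with YSJZD, so that YSJZD overlapped control and cisplatin replicate 3 was the lowest of its group, as for the leukocyte markers. Neutrophil markers, 12 genes, summed to 1.99 to 2.62 CPM in control, to 44.2 to 139.2 with cisplatin and to 4.15 to 10.2 with YSJZD, with Camp at 0 counts in control and all 10 tested members higher with cisplatin. That count is a description, since several of them, Mmp8 and Ngp among them, passed the filter for low counts only through the cisplatin libraries. The filter thus favoured a rise for these genes. Lymphocyte markers, 12 genes, summed to at most 14.3 CPM in any library.

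Per 1000 CPM of leukocyte markers in the same library, Casp1 was at 3.84 to 8.70 CPM in control, 4.39 to 6.72 with cisplatin and 3.20 to 12.2 with YSJZD, ranges that overlap. Mlkl by the same measure was at 9.60 to 14.5 in control, 24.0 to 174.7 with cisplatin and 47.5 to 58.3 with YSJZD, so both treated groups lay above control. Ripk3, at 3.84 to 9.80 in control, 20.7 to 69.1 with cisplatin and 16.01 to 35.2 with YSJZD, and Casp4, at 0.640 to 7.74, 13.3 to 51.6 and 19.9 to 34.3, also lay above control in every treated library. Zbp1, Gsdmd, Nlrp3, Casp8 and Pycard overlapped control in the cisplatin libraries. With YSJZD, Zbp1 and Ripk1 overlapped control, while Gsdmd, at 31.4 to 45.7 against 13.4 to 27.1, and Nlrp3, at 6.10 to 7.83 against 3.20 to 6.03, lay above it, as did Casp8 and Pycard. Ripk1 with cisplatin, at 54.1 to 227.6, lay below its control range of 401.4 to 538.7. This ratio is a description, and from which cells the RNA came was not tested.

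**Figure D3:**
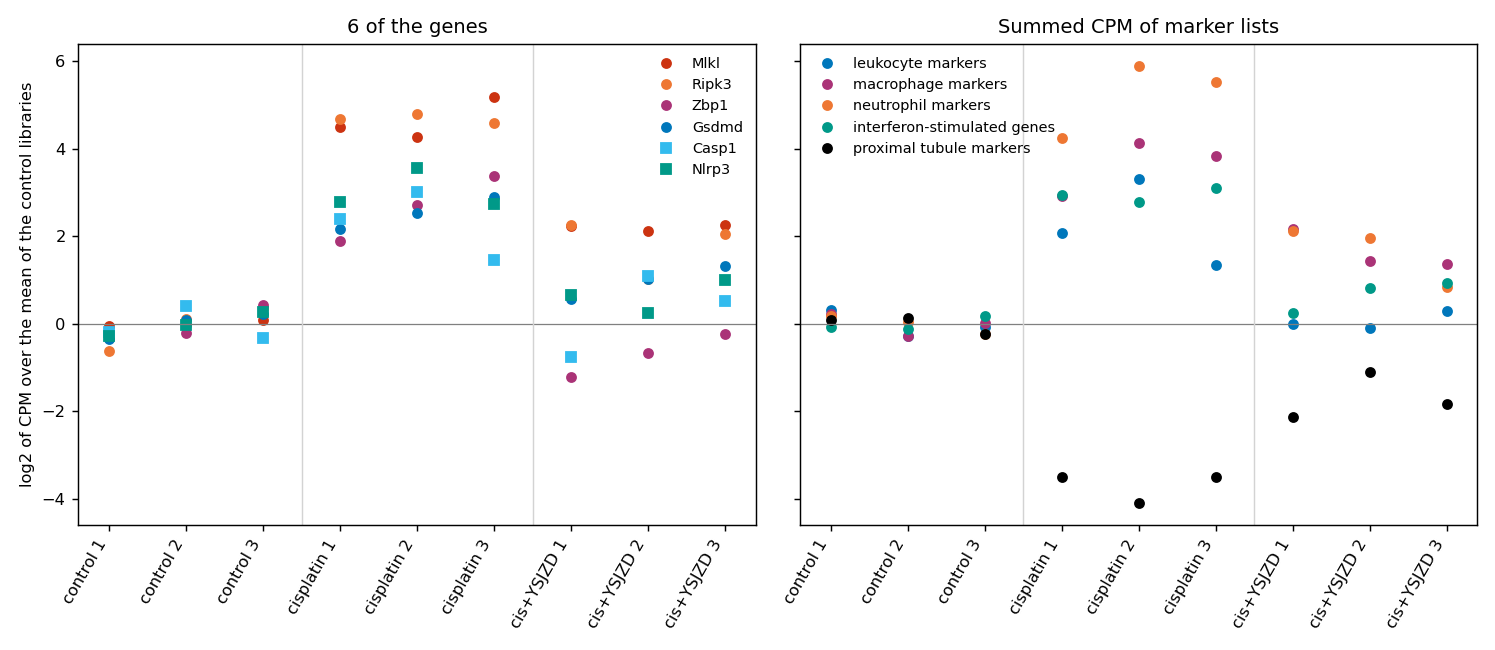
Log2 of the level in each library over the mean of the 3 control libraries, for 6 of the genes on the left and for the summed CPM of 5 marker lists on the right. Mlkl and Zbp1 peak in cisplatin replicate 3, where the leukocyte sum, 233.4 CPM, is the lowest of the 3 cisplatin libraries.

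Promoter sequence was taken from RefSeq (GRCm38.p6) for 8 of the 10 genes, in 11 windows reaching 250 bases before and 50 after a transcription start. Each was searched on both strands for 4 motifs of factors that act downstream of interferon, cytokines and stress, namely the interferon-stimulated response element (GAAA, any 2 bases and GAAA again, held by 3.44% of all 32851 windows of that length), the STAT site (TTCNNNGAA, 8.3%), the AP-1 site (TGANTCA, 7.81%) and the NF-κB site (4.51%). The stretches below run from 150 bases before to 10 after the start, read 5′ to 3′ on the strand of the gene, with motif matches in capitals. Ripk3 and Mlkl are shown as the kinase and substrate with like changes. Casp4 is shown as a gene with an NF-κB match, and Ripk1 as the gene not called in any comparison.
Ripk3, chr14:55788848-55789007, minus strand: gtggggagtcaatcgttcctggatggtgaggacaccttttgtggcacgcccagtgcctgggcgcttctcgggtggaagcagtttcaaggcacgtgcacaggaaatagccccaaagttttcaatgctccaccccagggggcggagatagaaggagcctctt
Mlkl, chr8:111338196-111338355, minus strand: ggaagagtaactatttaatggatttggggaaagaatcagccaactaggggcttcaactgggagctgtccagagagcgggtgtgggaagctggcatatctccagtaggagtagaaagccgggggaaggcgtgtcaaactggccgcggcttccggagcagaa
Casp4, chr9:5308699-5308858, plus strand: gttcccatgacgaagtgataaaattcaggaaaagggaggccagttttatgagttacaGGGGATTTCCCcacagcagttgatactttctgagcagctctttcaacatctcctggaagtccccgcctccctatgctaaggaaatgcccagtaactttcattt
Ripk1, chr13:34002724-34002883, plus strand: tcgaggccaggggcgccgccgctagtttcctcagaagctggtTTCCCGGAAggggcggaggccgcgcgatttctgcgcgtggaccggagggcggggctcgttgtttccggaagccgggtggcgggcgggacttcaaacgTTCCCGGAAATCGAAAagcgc
The capitals in Casp4 are overlapping NF-κB matches from -93 to -83 relative to the start. Those in Ripk1 are STAT matches at -108 to -100 and at -11 to -3, the latter running into an interferon element match at -5 to 5. Nlrp3 had an NF-κB match at -186 to -177 in 1 of its windows, and the windows of Ripk3, Mlkl, Casp1, Casp8 and Pycard held no match. These are letter matches only.

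The table lists 4 transcripts of Casp8, and their proportions were examined after the values were seen. Transcript XM_006495634.3 took 34.2%, 30.6% and 26.1% of the Casp8 counts in control replicates 1, 2 and 3, 25.8%, 34.7% and 34.2% with cisplatin and 14.6%, 14.3% and 18.8% with YSJZD. The YSJZD libraries were below all others. In CPM this transcript had means of 11.03 ± 1.57 in control, 26.7 ± 3.35 with cisplatin and 9.57 ± 1.78 with YSJZD (SD, n = 3), while NM_009812.2 had 24.6 ± 1.76, 53.9 ± 6.76 and 49.9 ± 2.95. A two-sided exact permutation test of the share gave p = 0.1 for YSJZD against either other group, the smallest value that 3 against 3 libraries allow, and p = 0.8 for cisplatin against control. RSEM divides reads between transcripts that share sequence, and that division carries an error not included here.

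**Figure D4:**
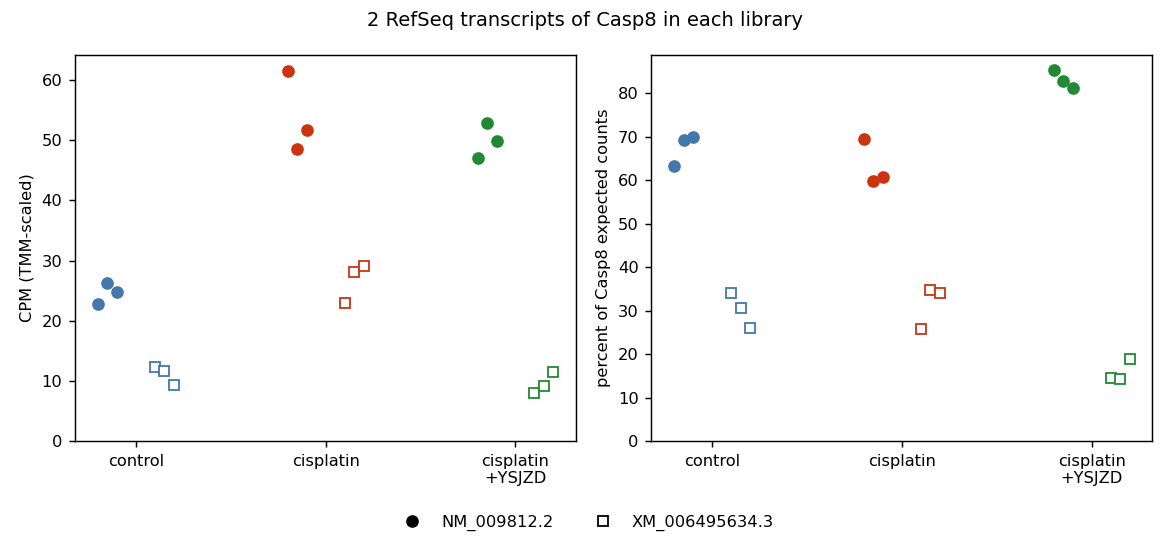
CPM on the left and percent of the Casp8 counts on the right for 2 RefSeq transcripts in each library. The share of XM_006495634.3 lies between 14.3% and 18.8% with YSJZD and between 25.8% and 34.7% in the other 6 libraries.

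The genes whose log2 CPM followed a member most closely over the 9 libraries were taken by Pearson's r, a description over libraries that fall into 3 groups. For Ripk3 they were Susd1 (r = 0.9955), Tpm4 (0.9939) and Fblim1 (0.9938), and for Mlkl Lgals3bp (0.995), Serpinb9 (0.992) and Ctbp2 (0.9918). For Nlrp3 they were Arg1 (0.9951), S100a4 (0.9914) and Slc38a9 (0.9895). The closest was Usp42 (0.948) for Ripk1, Twistnb (0.9806) for Casp1, Dgka (0.9885) for Casp4 and Ypel1 (0.9808) for Pycard. Casp8 was followed most closely by Abca1 (0.9952), Gsdmd by Sowahc (0.994), and Zbp1 by Spty2d1 (0.9845), Uba7 (0.9822) and the interferon-stimulated gene Rsad2 (0.982).

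Upstream of RIPK1 and RIPK3, the list of ligands, receptors and adaptors had 16 tested genes, of which 11 rose and none fell with cisplatin, with a median log2 fold change of 1.72. Beside this list and those below, 28.6% of all tested genes rose and 26.0% fell with cisplatin. For YSJZD against cisplatin 18.0% were lower and 17.4% higher, and for YSJZD against control 9.93% were higher and 9.37% lower. Tnfrsf1b, a TNF receptor, rose from 2.505 ± 0.39 to 45.5 ± 16.4 CPM (4.18 ± 0.35), the lipopolysaccharide receptor Tlr4 from 2.76 ± 0.39 to 32.8 ± 3.17 (3.57 ± 0.20) and the death receptor Tnfrsf10b from 3.19 ± 0.62 to 37.5 ± 12.3 (3.55 ± 0.32). Tnf itself had 3 counts over the control libraries and 95 over the cisplatin libraries, a ratio of 25.9 with a 95% exact counting interval of 8.60 to 127.8 that covers counting error only. Its fitted log2 fold change was 4.59 ± 0.82, or 3.77 without cisplatin replicate 3 and 5.48 without control replicate 1. With YSJZD 8 of the 16 were lower than with cisplatin and none was higher, or 5 without YSJZD replicate 3, and 7 were above control. Tlr4 fell to 3.38 ± 0.59 CPM and did not differ from control past the threshold (0.29 ± 0.20, adjusted p = 0.367). Tnfrsf1a, the main TNF receptor, showed no called difference between YSJZD and cisplatin (-0.20 ± 0.18, adjusted p = 0.411) and was 1.69 ± 0.19 above control. The fall of Tnf, -1.87 ± 0.62, was lost without cisplatin replicate 3, at -1.05 with an adjusted p of 0.162, and without any of the YSJZD replicates. It was also lost by limma-voom (-1.58, adjusted p = 0.0681) and in edgeR with only the 6 libraries compared (-1.86, adjusted p = 0.0513).

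Several genes that restrain the pathway also rose with cisplatin. Of 22 tested genes in a list of regulators of RIPK1, RIPK3 and MLKL, written as a list of brakes, 13 rose and none fell with cisplatin, with a median of 0.65. The list also holds Cyld and its partner Spata2, which remove ubiquitin from RIPK1 and can promote necroptosis, and neither was called with cisplatin. The ubiquitin ligase Birc3 went from 4.29 ± 0.21 to 78.8 ± 46.5 CPM (4.19 ± 0.41), the ubiquitin editor Tnfaip3 from 4.19 ± 0.96 to 46.0 ± 17.1 (3.45 ± 0.29), the kinase Ikbke from 3.05 ± 0.33 to 21.7 ± 7.13 (2.82 ± 0.28) and Adar, which edits the double-stranded RNA that ZBP1 can sense, from 34.0 ± 3.95 to 108.6 ± 18.1 (1.67 ± 0.16). Cflar, which encodes the caspase-8 partner cFLIP, rose by 0.86 ± 0.21 from the highest control level of these 5, 105.9 ± 10.4 CPM. With YSJZD 8 of the 22 were lower than with cisplatin and 1 was higher, and against control 6 were higher and 1, Spata2, was lower (-0.48 ± 0.14, adjusted p = 0.0419). The count of 6 was 3 without control replicate 1 or YSJZD replicate 1 and 2 without control replicate 2 or 3, and the single calls in the other direction were lost without most single libraries.

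The other inflammasome sensors split. Of 13 tested, 7 rose and 1 fell with cisplatin, and with YSJZD against cisplatin 8 were lower and 1 higher. Naip1, Naip6, Mefv and Aim2 passed the filter for low counts only through the cisplatin libraries. For these genes the filter favoured a rise with cisplatin and a lower level with YSJZD. DESeq2, limma-voom and an unadjusted edgeR p under 0.05 each had 2 lower with cisplatin. The gene called in the other direction was Nlrp6, a sensor of epithelial cells. It was at 152.2, 170.8 and 126.9 CPM in control, 8.14, 13.5 and 14.6 with cisplatin and 95.3, 109.4 and 119.7 with YSJZD. Cisplatin libraries lay far below the other groups, and the log2 fold change was -3.64 ± 0.23 with cisplatin (adjusted p = 2.45e-06) and 3.17 ± 0.23 for YSJZD against cisplatin (adjusted p = 4.18e-05). Its direction is that of the proximal tubule markers, of which 13 of 14 fell with cisplatin and 14 of 14 were higher with YSJZD, and their part in it was not tested. Ifi204, a sensor of DNA, rose by 4.10 ± 0.43 from 1.93 ± 1.17 CPM in control, or by 4.71 without control replicate 2, and stood at 2.98 ± 1.33 CPM with YSJZD. The DNA sensor Aim2 rose by 2.79 ± 0.67, or by 1.68 without cisplatin replicate 2, and its fall with YSJZD, -2.42 ± 0.65, was lost without that library and without YSJZD replicates 1 or 3. None of the 13 sensors was called between YSJZD and control by edgeR, which had 4 lower at an unadjusted p under 0.05, or by limma-voom, while DESeq2 called 2 lower. Naip5 and Naip6 had means of 0.818 and 0.299 CPM with YSJZD against 0.828 and 0.311 in control, differences whose sign turned with library totals alone and without several single libraries.

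Regulators of inflammasomes, 17 tested, had 13 higher and none lower with cisplatin, 10 lower and none higher with YSJZD against cisplatin, and 7 higher and none lower with YSJZD against control. Txnip, an NLRP3-binding protein, rose from 158.6 ± 60.3 to 1396 ± 203.4 CPM and stood at 485.7 ± 61.9 with YSJZD. Gbp3, an interferon-induced GTPase, rose by 3.91 ± 0.39 and Panx1, a membrane channel, by 3.32 ± 0.37, while Sting1, the adaptor of cytosolic DNA sensing, rose by 2.96 ± 0.26 and was still 1.98 ± 0.26 above control with YSJZD. Myd88, the Toll-like receptor adaptor, rose by 1.73 ± 0.17, and its fall with YSJZD, -0.59 ± 0.17, was lost without cisplatin replicate 3 (adjusted p = 0.0537) or YSJZD replicate 3 (adjusted p = 0.0761).

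Downstream of the caspases, 9 of 15 tested executioner and cytokine genes rose with cisplatin and none fell, with 9 lower and 1 higher with YSJZD against cisplatin. Against control 5 were higher with YSJZD, or 3 without any 1 of the control replicates or without YSJZD replicate 1. Il1b, the main cytokine substrate of caspase-1, was at 0.432 ± 0.26 CPM in control, 4.79 ± 2.41 with cisplatin and 0.597 ± 0.29 with YSJZD, with log2 fold changes of 3.46 ± 0.62 and -2.97 ± 0.59. Il18, the other such cytokine, changed less: 0.61 ± 0.29 with cisplatin did not pass (adjusted p = 0.0989), and -1.10 ± 0.29 for YSJZD against cisplatin did (adjusted p = 0.0157), though not without cisplatin replicate 2 or YSJZD replicate 3. Their antagonists were called too, Il18bp at 2.76 ± 0.33 and Il1rn from 1 count over the control libraries to 765 over the cisplatin libraries, a ratio of 625.6 with a 95% exact counting interval of 111.9 to 24740.

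The other pore, rupture and repair genes were called in different combinations. Gsdma had no counts in control and 159 over the cisplatin libraries, at least 43.3-fold higher against a floor of 3 counts over the control group, and 8 counts with YSJZD, where it was lower than with cisplatin (adjusted p = 0.0010). Gsdme, the gasdermin cut by caspase-3, was at 6.03 ± 2.14 CPM in control, 4.06 ± 0.30 with cisplatin and 7.36 ± 0.36 with YSJZD. The difference between YSJZD and cisplatin, 0.86 ± 0.27, passed with all libraries (adjusted p = 0.0308) and was lost without any 1 of the 6. Ninj1, needed for the final rupture of the plasma membrane, rose by 0.62 ± 0.19 with cisplatin (adjusted p = 0.0204). This call was lost without control replicates 2 or 3, and without cisplatin replicate 3 (0.41, adjusted p = 0.069). Chmp4b, part of the ESCRT machinery that repairs membranes, rose by 1.29 ± 0.16 from a control level of 85.3 ± 7.91 CPM and fell by 0.72 ± 0.16 with YSJZD against cisplatin.

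**Figure D5:**
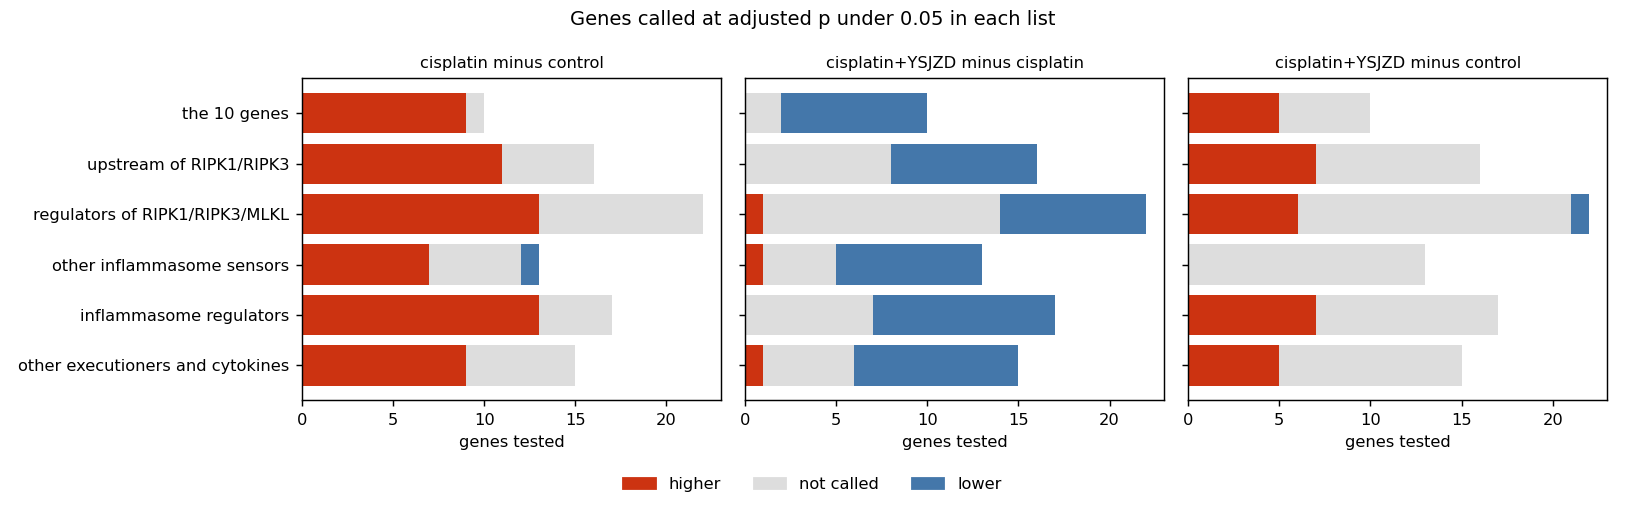
Number of tested genes called higher, lower or neither at an adjusted p under 0.05 in the 10 genes and in 5 lists around them, for each comparison. Among the 13 other inflammasome sensors 7 rose with cisplatin and none was called by edgeR between YSJZD and control.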

How the data were processed

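Total RNA of mouse kidney was sequenced by DNBSEQ, per the labels. The authors deposited read counts per RefSeq transcript, and since the submitters' processing notes name RSEM 1.3.1 they are expected counts. The notes also name DESeq2 1.4.5 and GRCh38, a human build, although the samples are from mice. Which aligner and mouse build were used is not given in the sources used here. The second set of deposited values was read as FPKM from the transcript length they imply.

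Expected counts of the 58075 transcripts were summed per Entrez gene and rounded, 16.5% to 19.3% of gene counts lying over 0.005 from a whole number. Symbols came from RefSeq (GRCm38.p6) for 17847 of 17963 genes. A single edgeR 4.0.16 fit (R 4.3.3) took in the 9 libraries with filterByExpr (4009 genes removed), TMM factors of 0.855 to 1.105 and group as the only term, and was tested on simulated data. All 10 genes passed the filter, Casp1 and Nlrp3 only through their counts in the cisplatin libraries. Some genes of the lists, Tnf, Il1b and Gsdma among them, passed in the same way. Levels with a ± sign are means with the SD of 3 libraries. The counting strand is not given: Ripk1 overlaps Serpinb6a and Pycard overlaps Gm45205 on the opposite strand, and Ripk1 shares 5.88% of its 31-base words with other genes, the pseudogene Gm17084 among them, and Casp8 shares 8.36%, so these 3 are less certain than their errors say.

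The 10 genes and the lists were chosen with earlier results of these data known. Pathway genes named are among the 6 of each list with the smallest p in cisplatin against control, with Il1b, Il18, Tnf, Tnfrsf1a, Cflar, Aim2, Gsdme and Ninj1 added whatever their result. Cyld and Spata2 were named outside this rule, as regulators that can promote necroptosis. Alternatives were DESeq2 size factors, library totals, no filter, a filter of 5 CPM in 3 libraries, DESeq2 1.42.0, limma-voom (limma 3.58.1), only the 6 libraries compared, a replicate block, limma on log2(FPKM + 0.1) and each library left out. Leaving out libraries for the list counts was chosen after seeing the data.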

Additional observations from a re-analysis of the deposited data

How the results depend on the processing

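Of the log2 fold changes of the 10 genes under the alternatives, 419 kept their direction and side of the threshold, 12 gained a call, 10 lost one and 1 turned. It was Ripk1 in YSJZD against cisplatin, at 0.0103 without cisplatin replicate 1 and at -0.15 without cisplatin replicate 2, the ends of its range when a library was left out. The number of the 10 genes called ran from 8 to 10 in cisplatin against control, from 6 to 9 in YSJZD against cisplatin and from 4 to 7 in YSJZD against control. Over all genes, 2694 were called in YSJZD against control, and 1607 to 2241 when a library was left out, the lowest being 1607 without control replicate 1 and 1699 without control replicate 2. With library totals in place of TMM the share of higher genes among those called in cisplatin against control was 66.1% in place of 52.4%, and in YSJZD against control 75.4% in place of 51.4%. The filter of 5 CPM removed Casp1 and Nlrp3, so they were not tested there. The low ends of 8 and 6 called genes came from that filter. Under it, all the remaining genes were called in cisplatin against control. Replicate numbers did not pair the samples: deviations of same-numbered libraries from their group means correlated at -0.21 to 0.08, and a replicate block called 9, 8 and 5 of the 10 genes and 7348, 4590 and 2367 genes in all. The low control counts of Casp1, Casp4, Nlrp3 and Ripk3 limit how precisely their fold changes are known.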
